A study of Mus musculus with 12 samples.

Results

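Notch receptors, ligands and target genes were followed across basal forebrain and cortex of double-knockout and control mice. The set holds 10 genes: the receptors Notch1, Notch2, Notch3 and Notch4, the ligands Jag1 and Dll1, and the targets Hes1, Hes5, Hey1 and Heyl. Every probe that carries one of these names in the scanner files was taken, which gave 17 of 56568 probes, for 10 of 37306 gene names. All 10 genes had a probe that the scanner called well above background on 12 of 12 arrays, so none was lost to a filter on dim probes.

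Notch is a receptor that is cut after it binds a ligand on a neighbouring cell. ADAM proteases make the first cut, gamma-secretase makes the next inside the membrane, and the freed intracellular domain joins RBPJ and Mastermind proteins to switch on Hes and Hey genes. The product of Psen2 can serve as the catalytic part of gamma-secretase. In the adult brain, Notch1 and Notch2 are known from neurons and glia, Notch3 from the mural cells of vessels, Notch4 from endothelium, and Hes5 from astrocytes and neural stem cells.

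RNA of basal forebrain, home of the cholinergic neurons that project to cortex, and of cortex itself was measured on 12 one-colour Agilent arrays. The double knockout (DKO) mice lacked Psen2 in the whole animal and carried Cre driven by Chat, hence meant for cholinergic neurons, a small share of the cells in either tissue, together with another gene that was floxed. The controls (Con) had the same floxed gene, no Cre and 1 working copy of Psen2. Each genotype had 3 mice, 2 months old and labelled male, and each mouse gave both regions. The comparison asks whether Notch pathway RNA differs between these genotypes. In whole tissue, fewer cells of a type and less RNA per cell cannot be told apart.

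A level below is the log2 intensity of a gene's brightest probe minus the 75th percentile of its array, so 0 is that percentile, and a difference of 1 is 2-fold. Values in a series are those of mice 1, 2 and 3. Psen2 stood at -1.86 to -1.25 in DKO and 0.25 to 0.42 in Con basal forebrain, and at -1.70 to -1.59 against 0.42 to 0.50 in cortex. All 7 basal forebrain markers were higher and all 7 cortex markers lower in basal forebrain than in cortex in each genotype. Choroid plexus markers had a summed level of 5.74 to 6.88 on the cortex arrays and 2.93 to 3.27 on the basal forebrain arrays. Of these 6 markers 5 were lower on average in basal forebrain in each genotype. The other, Clic6, was higher there, at 2.55 to 3.03 against 0.85 to 2.05 in cortex.

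Libraries stood apart in 2 ways. DKO mice 1 and 3 had Xist at -2.32 to -1.53 and the Y-linked genes Ddx3y, Eif2s3y and Uty below background, against the male label (the probe of Kdm5d, also Y-linked, was above background on all 12 arrays), while DKO mouse 2 and the Con mice read as males. Slide 1 carried the 6 basal forebrain arrays together with cortex from DKO mice 1 and 2; slide 2 carried cortex from DKO mouse 3 and the 3 Con mice. B-cell markers (4 genes) had a summed level of -1.29 to -0.18 on the DKO arrays and -3.19 to -2.88 on the Con arrays, and red-cell markers (4 genes) 7.30 to 8.79 against 6.19 to 6.66. The part of blood cells in any Notch difference between the genotypes was not tested.

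Sequences are shown for the members whose measurement rests on known letters. The Notch1 probe on which the results below turn is a 60-base stretch of the coding sequence of the receptor's intracellular domain, at chr2:26319440-26319499 (mm9, minus strand). Hes5 was read by a pair of probes above background on 12 of 12 arrays. The dimmer of them, at chr4:154335350-154335409 (mm9, plus strand), lies in the coding sequence, and it is printed because it repeats the Hes5 measurement.
Notch1 probe: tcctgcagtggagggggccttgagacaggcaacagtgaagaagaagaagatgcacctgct
Hes5 second probe: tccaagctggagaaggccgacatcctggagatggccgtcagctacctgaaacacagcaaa

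RBPJ, the DNA-binding partner of the Notch intracellular domain, is known to bind a core of TGGGAA. Promoters of 7 of the 10 genes (Notch1, Notch2, Notch3, Notch4, Jag1, Dll1 and Hes5) were taken from RefSeq on build GRCm38.p6, from 250 bases before to 50 bases after the transcription start. The core was searched on both strands. It was found in none of the receptor and ligand promoters and in 2 copies in the Hes5 promoter, which begin 226 and 82 bases before the start, the first on the opposite strand. Of 32851 promoters of the same length, 25.6% held the core at least once and 3.79% at least 2 times. Such a match is a description of the letters, not a site shown to be bound. The Hes5 promoter, at chr4:154960673-154960972 on the plus strand, follows with the core in capitals.
Hes5 promoter: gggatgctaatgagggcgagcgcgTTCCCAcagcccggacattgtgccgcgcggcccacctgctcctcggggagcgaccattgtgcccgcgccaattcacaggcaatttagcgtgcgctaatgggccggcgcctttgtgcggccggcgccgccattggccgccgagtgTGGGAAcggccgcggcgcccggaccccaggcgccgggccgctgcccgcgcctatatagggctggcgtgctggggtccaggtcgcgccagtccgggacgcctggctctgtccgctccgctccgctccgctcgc

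In basal forebrain no Notch receptor, ligand or target passed the test between DKO and Con. Differences were tested with limma on all genes well above background on the 3 arrays of at least 1 group, with Benjamini-Hochberg adjustment over all of them, and a gene passed at an adjusted p under 0.05. By this rule 0 of 10 members passed, and 8 of 26102 genes did (0.0306%). At an unadjusted p under 0.05 there was 1 of 10 members, Notch1, beside 4.39% of all genes. The members' median difference was 0.01, with a range of -0.34 to 0.97 and 6 of 10 positive, and the median over all genes was 0. The limma adjusted p of the members lay between 0.973 and 0.997.

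Notch1 had the largest difference of the set in basal forebrain. It read -1.10, -0.77 and -0.92 in DKO against -1.96, -1.02 and -2.70 in Con. The DKO mice lay close together, and the Con mice spread over more than the distance between the group means, with Con mouse 2 inside the DKO range. The means were -0.93 (SD 0.16) and -1.90 (SD 0.84, n = 3 each). The difference was 0.97 (95% interval 0.05 to 1.89, limma adjusted p = 0.973), and across the alternative settings it was 0.57 to 1.41 with an adjusted p of 0.158 to 1. A second Notch1 probe, at chr2:26354049-26354108, was above background on all 3 DKO and 2 of 3 Con basal forebrain arrays and on 0 cortex arrays. It gave -5.72, -5.71 and -5.56 in DKO against -6.26, -5.40 and -7.00 in Con, so Con mouse 3 was again lowest and Con mouse 2 highest among the controls. On the same Con arrays the summed level of the 7 cortex markers was 3.77, 3.11 and 4.08, and in DKO 3.89, 3.34 and 3.19; their part in the Notch1 values was not tested.

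The other receptors differed little between the genotypes in basal forebrain. Notch2 read 0.22, 0.42 and 0.06 in DKO against 0.38, 0.17 and 0.39 in Con, overlapping groups with a difference of -0.08 (SE 0.12). Notch3 read 1.47, 1.50 and 1.40 in DKO against 1.39, 1.39 and 1.13 in Con, a difference of 0.15 (95% interval -0.06 to 0.37). Notch3 was the one member whose basal forebrain groups did not overlap, which held for 9.95% of all genes in this comparison. Notch4 read 1.46, 1.40 and 1.19 against 1.39, 1.30 and 1.34, a difference of 0.01 (95% interval -0.20 to 0.22).

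Both ligands also overlapped between the genotypes there. Jag1, a ligand of the Jagged type, read -0.74, -0.93 and -0.68 in DKO against -0.70, -0.92 and -1.27 in Con. Dll1, a Delta-like ligand, read -1.43, -1.58 and -1.37 in DKO against -1.37, -1.36 and -1.71 in Con. Con mouse 3 was lowest in both genes; the other Jag1 arrays mixed, whereas for Dll1 no DKO array lay above the other Con arrays. The differences were 0.17 (SE 0.16) for Jag1 and 0.02 (SE 0.14) for Dll1, which was -0.09 without Con mouse 3.

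Among the targets, the transcriptional repressors of the Hes and Hey families, 3 of 4 had a negative difference in basal forebrain and none passed. Hes5 read 4.16, 3.61 and 3.63 in DKO against 4.12, 4.17 and 4.12 in Con. DKO mice 2 and 3 lay below every control, and DKO mouse 1 lay among them, which gave a difference of -0.34 (95% interval -0.69 to 0.01, limma adjusted p = 0.973). The second Hes5 probe read -1.76, -2.09 and -2.18 in DKO against -1.75, -1.70 and -1.55 in Con, also a difference of -0.34. There the groups did not overlap, though DKO mouse 1 at -1.76 lay next to Con mouse 1 at -1.75. Groups without overlap occurred in 9.95% of all genes in this comparison. Without DKO mice 1 and 3 the Hes5 difference was -0.53 with an adjusted p of 1, the lone DKO mouse being assumed to vary like the controls.

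Hes1 read -3.39, -3.85 and -4.23 in DKO, and -3.89, -3.66 and -3.39 in basal forebrain of Con, a difference of -0.18 (SE 0.26) between overlapping groups. Hey1 read 3.51, 3.31 and 3.36 against 3.50, 3.56 and 3.57, with DKO mice 2 and 3 below all controls and a difference of -0.15 (95% interval -0.32 to 0.03). Heyl read -0.14, -1.03 and -0.60 in DKO against -0.56, -1.06 and -0.94 in Con, a difference of 0.26 (SE 0.24), and without DKO mice 1 and 3 it was -0.18. The direction of Heyl in basal forebrain therefore rested on those DKO mice.

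**Figure D1:**
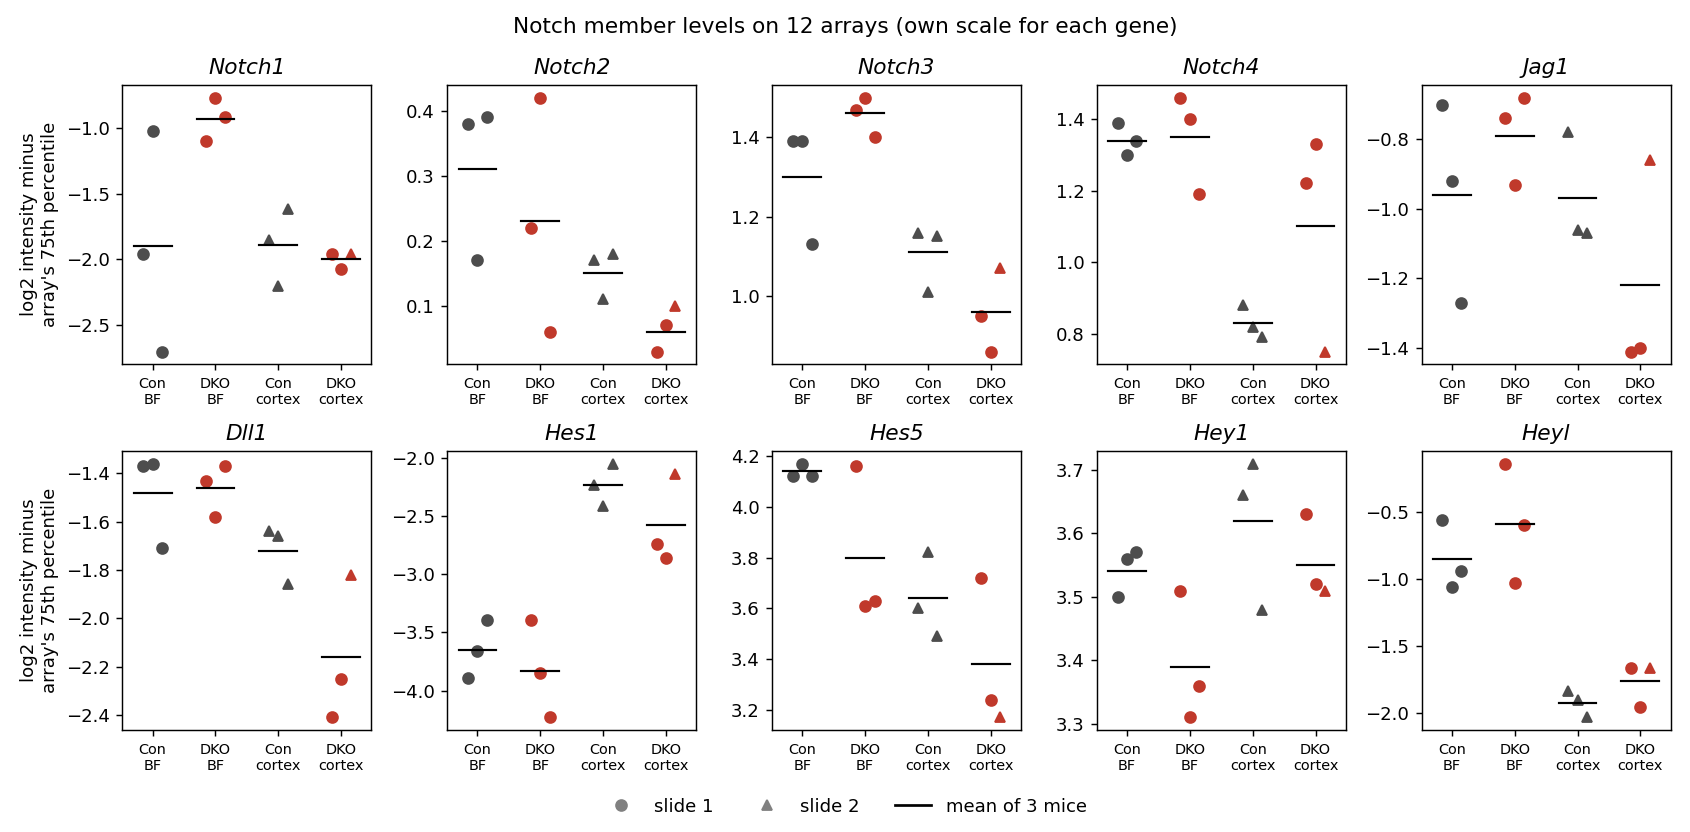
Levels of the 10 genes on the 12 arrays, each panel with its own vertical scale in log2 intensity minus the array's 75th percentile. Points are single arrays (circles on slide 1, triangles on slide 2; grey Con, red DKO) and lines are means of 3 mice; Heyl is higher and Hes1 lower in basal forebrain (BF) of both genotypes, and the Notch4 triangles all lie below the Notch4 circles.

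In cortex no member passed either. The members' median difference, DKO minus Con, was -0.13, with 8 of 10 negative, beside a median of -0.05 over all genes, of which 58.5% were negative. Of the members 0 of 10 passed, against 3 of 25798 genes (0.0116%). At an unadjusted p under 0.05 there were 18.9% of all genes and 1 of 10 members. That member was Dll1, which read -2.41, -2.25 and -1.82 in DKO against -1.64, -1.66 and -1.86 in Con. DKO mice 1 and 2 lay below all controls and DKO mouse 3 lay among them. The difference was -0.44 (95% interval -0.83 to -0.05, limma adjusted p = 0.261), and over the alternatives its adjusted p ran from 0.00644 to 0.961.

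The arrays of DKO mice 1 and 2, which alone among the cortex arrays were on slide 1, set most of these cortex values. In 6 of the 10 members both lay outside the range of the 4 cortex arrays on slide 2, 5 below and 1 above, and this held for 57.0% of all genes tested in cortex. Notch4 read 1.22, 1.33 and 0.75 in DKO against 0.88, 0.82 and 0.79 in Con cortex. Thus DKO mouse 3, on the slide of the controls, had the lowest Notch4 value of the 6, and the other DKO mice had the highest. Jag1 read -1.41, -1.40 and -0.86 against -0.78, -1.06 and -1.07, and Hes1 read -2.74, -2.86 and -2.14 against -2.23, -2.41 and -2.05. In both genes DKO mouse 3 lay among the controls.

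When DKO mouse 3 was left out, 4 members passed in cortex, and 9759 of 26082 genes did. They were Notch4 at 0.44 (adjusted p = 0.00333), Jag1 at -0.44 (0.0197), Dll1 at -0.61 (0.00644) and Hes1 at -0.57 (0.0153). That fit sets slide 1 against slide 2 as much as DKO against Con, and the 2 cannot be told apart in it. Within slide 2, where DKO mouse 3 met the 3 Con mice, no member passed and 27 of 26333 genes did. There Notch4 was -0.08 (SE 0.08), Jag1 0.11 (SE 0.15), Dll1 -0.10 (SE 0.14) and Hes1 0.09 (SE 0.17). These within-slide values of Notch4, Jag1 and Hes1 have the opposite sign to the values over both slides.

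**Figure D2:**
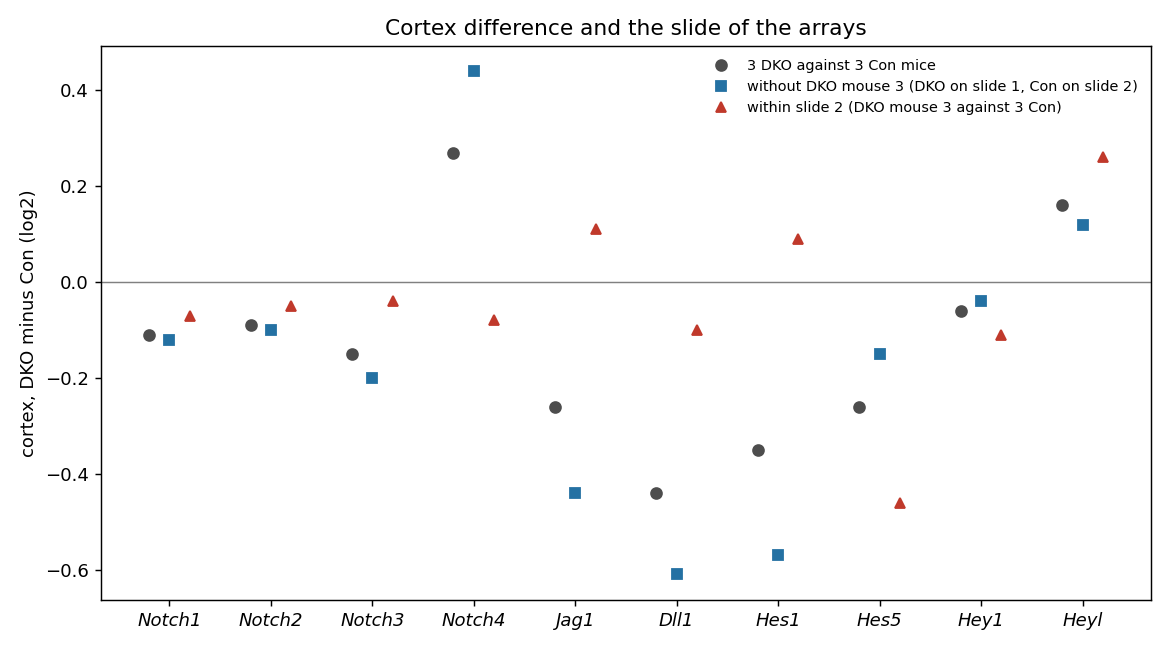
Cortex difference, DKO minus Con in log2 units, of each gene over all mice (circles), without DKO mouse 3 (squares) and within slide 2 (triangles, 1 DKO mouse against 3 Con). For Notch4, Jag1, Dll1 and Hes1 the squares lie farthest from 0, at 0.44, -0.44, -0.61 and -0.57, and the triangles lie between -0.10 and 0.11.

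Hes5, Notch1, Hey1 and Heyl were the members in which the cortex arrays of the 2 slides overlapped. Hes5 read 3.72, 3.24 and 3.17 in DKO against 3.60, 3.82 and 3.49 in Con, so that DKO mice 2 and 3, from different slides, were below all controls. Its difference was -0.26 (95% interval -0.61 to 0.09) over all mice and -0.46 (SE 0.12, adjusted p = 0.429) within slide 2; over the alternatives the adjusted p was 0.0545 to 0.716. The second Hes5 probe read -2.07, -2.68 and -2.96 in DKO against -2.52, -2.29 and -2.52 in Con, a difference of -0.13 with the same pair of DKO mice lowest. Over the mean of both regions Hes5 differed by -0.30 (95% interval -0.61 to 0.01, limma adjusted p = 0.473). The 7 astrocyte markers had a median difference of 0.05 in basal forebrain and -0.17 in cortex, and 0 of 7 passed in either; their part in the Hes5 values was not tested.

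Notch1 in cortex read -1.96, -2.07 and -1.96 in DKO against -1.85, -2.20 and -1.62 in Con, a difference of -0.11 (SE 0.16). The wide spread of the controls in basal forebrain was not present in the cortex of the same mice, where the SD was 0.29 against 0.84. Notch2 read 0.03, 0.07 and 0.10 in DKO against 0.17, 0.11 and 0.18 in Con. It was the one member whose cortex groups did not overlap, a pattern of 22.4% of all genes in that comparison, and its difference was -0.09 (SE 0.08), or -0.05 within slide 2. Notch3 read 0.95, 0.86 and 1.07 against 1.16, 1.01 and 1.15, a difference of -0.15 (SE 0.09) that was -0.04 within slide 2. Hey1 and Heyl differed by -0.06 (SE 0.08) and 0.16 (SE 0.12), with overlapping groups.

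Averaging the 2 arrays of each mouse gave 6 values per gene, and 0 of 10 members passed, against 42 of 26959 genes (0.156%). Notch1 had the largest of these differences. Its mouse means were -1.53, -1.42 and -1.44 in DKO against -1.91, -1.61 and -2.16 in Con, without overlap. The difference was 0.43 (95% interval 0.11 to 0.76, limma adjusted p = 0.416). For Hes1 the mouse means were also apart, at -3.07, -3.36 and -3.18 in DKO against -3.06, -3.04 and -2.72 in Con, and the difference was -0.26 (SE 0.15, adjusted p = 0.519). Groups without overlap occurred in 16.7% of all genes here, beside 2 of the 10 members. With the slide as a block, in a fit of the 12 single arrays without a mouse term, Notch1 was 0.45 (SE 0.29) and Hes1 -0.04 (SE 0.18).

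**Figure D3:**
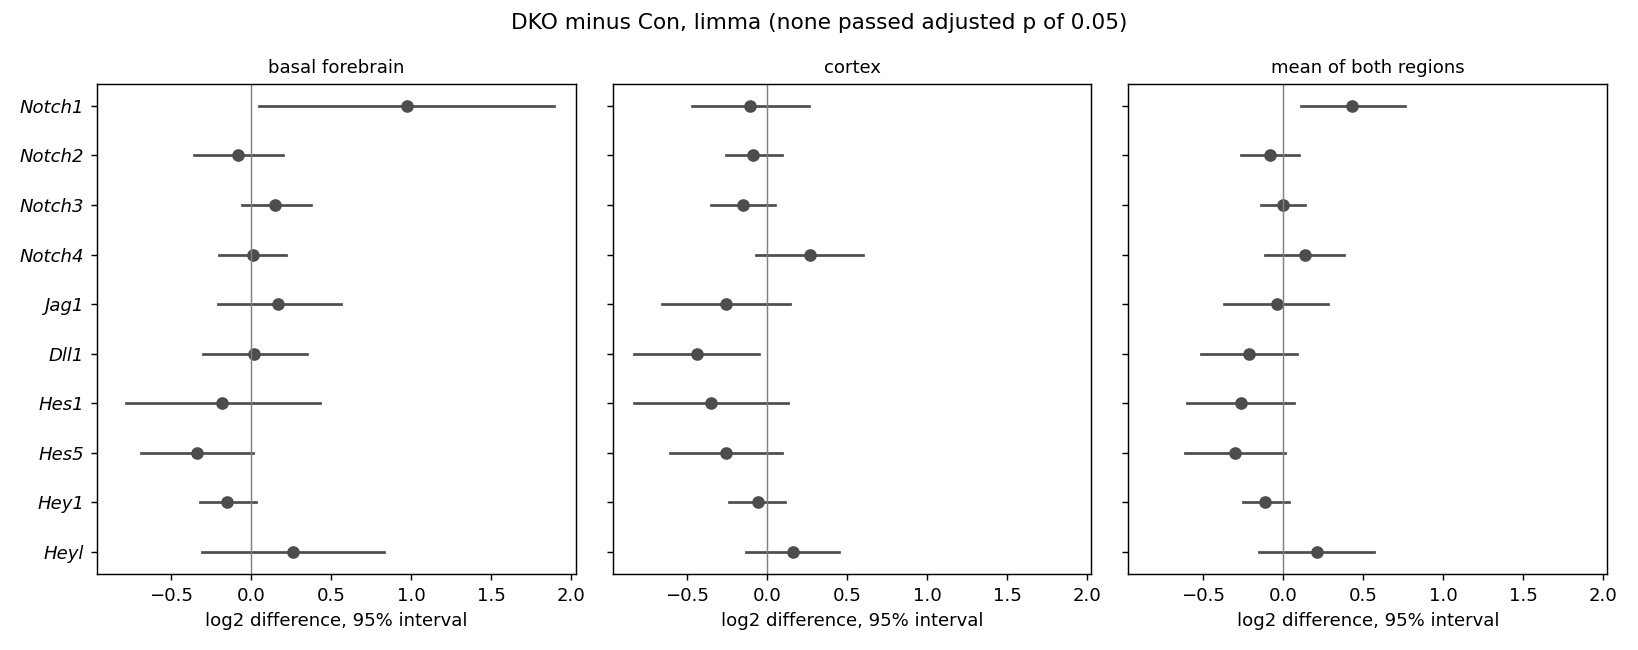
Difference DKO minus Con in log2 units, with its 95% interval, for the 10 genes in basal forebrain, cortex and the mean of both regions (3 mice per genotype). Notch1 stands at 0.97 in basal forebrain and 0.43 in the mean of both regions, the intervals of the other members include 0 except that of Dll1 in cortex, and none passed the test over all genes.

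Whether the genotype difference itself differed between the regions was tested as an interaction over the 12 arrays. No member passed, with a smallest limma adjusted p of 0.562, and 0 of 26959 genes did (0%); 2254 genes had an unadjusted p under 0.05, among them 2 members. Those were Notch1, with an interaction of 1.07 (95% interval 0.11 to 2.04), and Notch3, with 0.30 (95% interval 0.03 to 0.58). Without the cortex array of DKO mouse 3, Notch4 passed at -0.43 (adjusted p = 0.041), as did 2591 genes, in a fit whose DKO and Con cortex arrays lie on different slides. With the slide as a block the Notch4 interaction was 0.09 with an adjusted p of 1, and the range over all alternatives was 0.041 to 1.

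The regions differed in several members. In Con mice 4 of 10 passed between basal forebrain and cortex (3 higher, 1 lower in basal forebrain), and 49.0% of all 26592 genes did. In DKO mice 5 of 10 passed (4 higher, 1 lower), and 39.9% of 25916 genes did. The members' share was thus near that of all genes in each genotype. Their median difference was 0.18 in Con and 0.43 in DKO, beside -0.09 and -0.04 over all genes. Groups did not overlap for 4 members in Con and 5 in DKO, against 61.8% and 50.1% of all genes. Of the members 2 passed in both genotypes, which is 50% of those in Con and 40% of those in DKO, beside 61.5% and 75.7% of the calls over all genes tested in both. They were Heyl and Hes1, with opposite signs.

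Heyl, a repressor of the Hey family, was higher in basal forebrain in each of the 6 mice. Within a mouse it exceeded the cortex by 1.52, 0.91 and 1.06 in DKO and by 1.27, 0.85 and 1.09 in Con. All basal forebrain values, -1.06 to -0.14, lay above all cortex values, -2.03 to -1.66. The difference was 1.07 in Con (2.10-fold, limma adjusted p = 0.0013) and 1.16 in DKO (2.24-fold, limma adjusted p = 0.000825). Within slide 1, which held 3 DKO basal forebrain and 2 DKO cortex arrays, it was 1.21 (SE 0.26, limma adjusted p = 0.0102). With the slide as a block, a setting chosen after the data were seen, the Con difference was 1.21 (SE 0.37), and its adjusted p of 0.0639 no longer passed. In Con each region lay on 1 slide, so for every gene the slide term rests on DKO cortex, mice 1 and 2 against mouse 3. Slide and mouse cannot be told apart in that term.

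Hes1 went the other way in every mouse. Basal forebrain minus cortex was -0.65, -0.99 and -2.09 in DKO against -1.66, -1.25 and -1.33 in Con, and the basal forebrain arrays (-4.23 to -3.39) did not overlap the cortex arrays (-2.86 to -2.05). It was lower by 2.67-fold in Con (difference -1.41, SE 0.24, limma adjusted p = 0.000758) and by 2.37-fold in DKO (difference -1.24, SE 0.24, limma adjusted p = 0.00195). Under normexp background correction the differences were -1.08 in Con and -0.85 in DKO, and under quantile normalization -1.53 and -1.49. Within slide 1 the DKO difference was -1.02 (SE 0.26, limma adjusted p = 0.0218). Adding the slide as a block left the Con difference at -0.75 (SE 0.38) with an adjusted p of 0.264. For Hes1, then, the size in Con changed when a slide term, set by the DKO cortex arrays, was added. The sign of the Con difference stayed the same under the alternatives run.

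**Figure D4:**
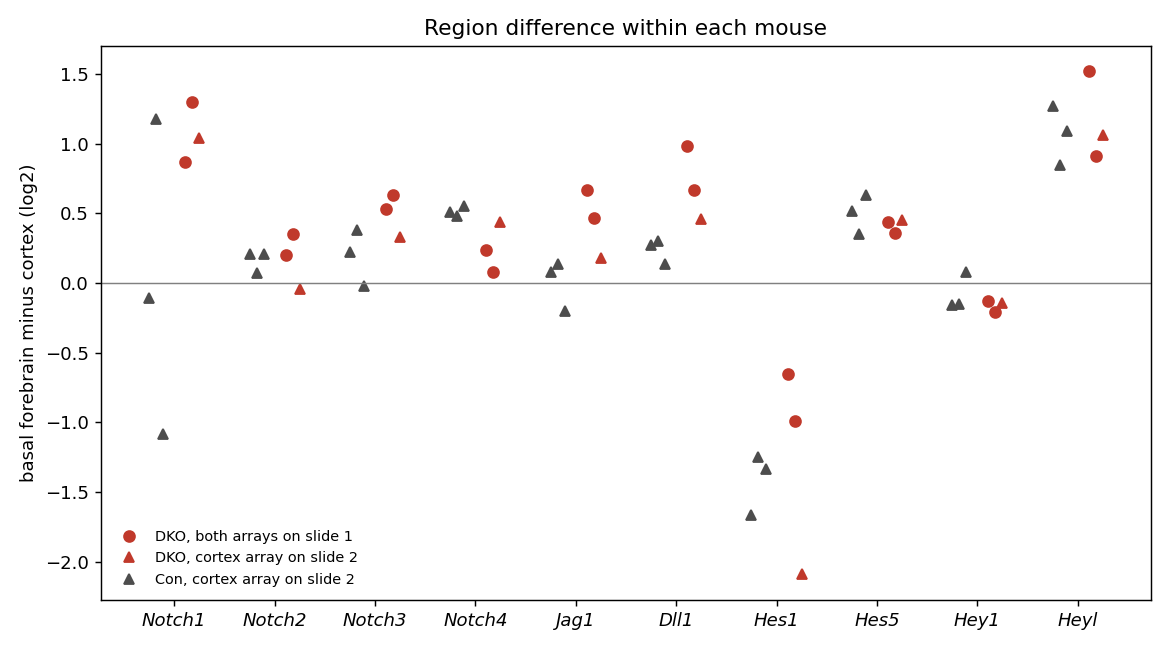
Basal forebrain minus cortex in log2 units within each mouse for the 10 genes (grey Con, red DKO; circles where both arrays of the mouse were on slide 1, triangles where the cortex array was on slide 2). Heyl is above 0 and Hes1 below 0 in all 6 mice, Notch1 is above 0 in all 3 DKO mice and spread from -1.08 to 1.18 in Con, and the smallest Notch4 values are those of the mice with both arrays on slide 1.

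Of the receptors, Notch3 was higher in basal forebrain of DKO mice. It exceeded the cortex by 0.53, 0.63 and 0.33 in DKO, and by 0.22, 0.38 and -0.02 in Con. The DKO difference was 0.50 (SE 0.09, limma adjusted p = 0.001), or 0.55 (SE 0.10) within slide 1. The Con difference was 0.19 (95% interval 0.00 to 0.39, limma adjusted p = 0.088). It passed at 0.27 under quantile normalization, 0.22 under normexp and 0.28 without the basal forebrain array of Con mouse 3. With the slide as a block it was 0.36 (SE 0.15, limma adjusted p = 0.16) and did not pass. The adjusted p over the alternatives of this Con difference ran from 0.0174 to 0.263. Of the 8 mural-cell markers 3 passed as higher in basal forebrain in Con and 4 in DKO, beside 49.0% and 39.9% of all genes that passed in either direction, and none passed as lower. Tagln, a smooth-muscle protein, was higher by 1.29 in Con and 1.67 in DKO, and Myh11, smooth-muscle myosin, by 1.24 and 1.83. Pdgfrb, Rgs5 and Abcc9, markers of pericytes, did not pass, at -0.27, -0.07 and -0.30 in Con and 0.22, 0.13 and 0.24 in DKO. Of the rest of the list, Vtn read 3.12 to 3.63 on the basal forebrain arrays and 2.58 to 2.98 on the cortex arrays. Kcnj8 read 0.04 to 0.40 against -0.27 to 0.03, and Acta2 3.21 to 3.63 against 3.23 to 3.43. The summed level of the list was 4.80 to 5.23 in basal forebrain and 4.46 to 4.68 in cortex, and its part in these results was not tested.

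Notch1 passed between the regions in DKO at 1.07 (SE 0.32, limma adjusted p = 0.0182). The difference was 0.87, 1.30 and 1.04 in the DKO mice and -0.11, 1.18 and -1.08 in the Con mice, a mean of -0.01 in Con. In DKO it was 1.09 (SE 0.40, limma adjusted p = 0.0728) within slide 1, 0.99 without the basal forebrain array of mouse 2 (adjusted p = 0.0629) and 1.06 without that of mouse 3 (0.0507), so the call ended in each of these settings. The adjusted p over all its alternatives was 0.000671 to 0.23. The second Notch1 probe was above background on 3 DKO and 2 Con basal forebrain arrays and below it on all 6 cortex arrays. It gave no size for this difference, and its higher signal in basal forebrain was seen in both genotypes.

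The Notch4 arrays separated by slide. Across both regions the 8 arrays on slide 1 lay between 1.19 and 1.46, and the 4 on slide 2 between 0.75 and 0.88. The Con difference between the regions, where all basal forebrain arrays were on slide 1 and all cortex arrays on slide 2, was 0.51 (SE 0.13, limma adjusted p = 0.00666). With the slide as a block it was -0.01 (SE 0.14, adjusted p = 0.973). Within slide 1 the DKO difference was 0.08 (SE 0.09). Notch4 had further probes, 1 of which was above background on 1 of 12 arrays and 1 on none, so neither repeated the measurement. The one at 0 arrays lies at chr17:35104770-35104829 in mm9, away from the read probe at chr17:34725384-34725442.

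Notch2 did not pass in either genotype, with 0.16 (SE 0.10) in Con and 0.17 (SE 0.10) in DKO. Its second probe was above background on 0 of 12 arrays, as were the second probes of Dll1 and Heyl.

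Both ligands were higher in basal forebrain in all 3 DKO mice. Dll1 exceeded the cortex by 0.98, 0.67 and 0.46 in DKO and by 0.27, 0.30 and 0.14 in Con. It passed in DKO at 0.70 (SE 0.16, limma adjusted p = 0.00457) and was 0.87 (SE 0.15, limma adjusted p = 0.00369) within slide 1, while the Con difference of 0.24 (SE 0.16, limma adjusted p = 0.226) did not pass. The Con difference with the slide as a block was 0.75 (SE 0.22, adjusted p = 0.0548) for Dll1 and 0.56 (SE 0.26, adjusted p = 0.218) for Jag1. The interaction for Dll1 was 0.46 (95% interval -0.03 to 0.95, limma adjusted p = 0.562). Jag1 exceeded the cortex by 0.67, 0.47 and 0.18 in DKO and by 0.08, 0.14 and -0.20 in Con. Its DKO difference of 0.44 had an adjusted p of 0.0671 and passed at 0.62 within slide 1 (adjusted p = 0.0265). For Jag1 the range of the adjusted p over its alternatives was 0.0124 to 0.284.

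Hes5 was higher in basal forebrain in all 6 mice, by 0.44, 0.36 and 0.45 in DKO and by 0.52, 0.35 and 0.63 in Con. The Con difference of 0.50 passed (SE 0.16, limma adjusted p = 0.0242), and the DKO difference of 0.42 did not (limma adjusted p = 0.06). The second probe gave 0.78 in Con and 0.56 in DKO, in the same direction. In the Con comparison Hes5 no longer passed when any of 4 single arrays was left out: the basal forebrain arrays of Con mouse 1 (0.51, adjusted p = 0.055) and 2 (0.48, 0.0577) and the cortex arrays of Con mouse 1 (0.48, 0.0669) and 3 (0.43, 0.0888). With the slide as a block it was 0.19 (adjusted p = 0.749), and over all its alternatives in Con the adjusted p ran from 0.00119 to 0.749. Hey1 had the smallest spread of the targets, 3.31 to 3.71 over the 12 arrays, and did not pass at -0.08 in Con and -0.16 in DKO.

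With the mouse as a block, 8 members passed in DKO instead of 5, beside 10397 of 25916 genes instead of 10337. The added members were Notch4 at 0.25 (adjusted p = 0.0413), Jag1 at 0.44 (0.0223) and Hes5 at 0.42 (0.003), the differences themselves being the same. In Con the block left 4 members, beside 13155 of 26592 genes. With the mouse as a random block 7 members passed in DKO, beside 11183 of 25916 genes, and Notch4 was no longer among the 7 (adjusted p = 0.0996). Without DKO mice 1 and 3, each DKO group was a single array assumed to vary like the Con arrays, which gave all of the spread. There Notch3 was 0.63, Heyl 0.91, Hes1 -0.99, Dll1 0.67 and Notch1 1.30. All of these kept the sign of the full comparison, but most no longer passed with a single array in each DKO group.

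For Notch1 the order of the group means was DKO basal forebrain, Con cortex, Con basal forebrain, DKO cortex, and the last 3 lay within the spread of Con basal forebrain. For Notch3, Jag1 and Dll1 it ran from DKO basal forebrain through Con basal forebrain and Con cortex to DKO cortex. The steps between the genotypes within a region stayed inside the spread or did not pass. For Notch2 and Hes5 the 2 Con groups each stood above the DKO group of their region, and for Hes1 and Hey1 the same held with cortex first. Heyl and Notch4 stood in the order DKO basal forebrain, Con basal forebrain, DKO cortex, Con cortex. In Heyl the step from Con basal forebrain to DKO cortex, with no overlap between them, was the one that exceeded the spread. In Notch4 the step from DKO to Con cortex did not pass. There DKO mice 1 and 2, at 1.22 and 1.33, differ from the controls in slide and genotype, which cannot be told apart. DKO mouse 3, on the slide of the controls, read 0.75 against 0.88, 0.82 and 0.79 in Con.

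Other genes of the pathway were taken from lists by role, 73 genes in all, each of which was tested in every comparison. Between DKO and Con 1 of 73 passed in basal forebrain, 1 in cortex and 1 over both regions, each time Psen2, the deleted gene itself, which was lower by 1.87 (SE 0.16, limma adjusted p = 0.0334) and 2.12 (SE 0.08, adjusted p = 0.000327) in DKO. The median over the 73 genes was -0.02 in basal forebrain and 0.01 in cortex. None passed the interaction. Among the processing proteases, Adam17, which can make the first cut in Notch, differed by -0.30 in basal forebrain (SE 0.12, limma adjusted p = 0.973), and Adam10, the main protease of that step, by -0.27 in cortex (SE 0.11, adjusted p = 0.261). Aph1b, a gamma-secretase subunit, was 0.19 in cortex (SE 0.07, adjusted p = 0.261) and -0.09 in basal forebrain.

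The genes of smallest p in the other lists did not pass between the genotypes. Dlk2, a non-canonical ligand, differed by -0.29 in basal forebrain (SE 0.11, limma adjusted p = 0.973) without overlap of the groups, and Dlk1, its paralogue, by 1.10 in cortex (SE 0.38, adjusted p = 0.261). In cortex the co-repressor gene Hdac2 stood at -0.43, the coactivator genes Crebbp and Maml1 at 0.17 and 0.23, and the ubiquitin ligase gene Nedd4 at 0.27, each with an adjusted p of 0.261 to 0.264. Of the other targets, Bhlhe40 was -0.57 and Hey2 -0.65 in cortex, with adjusted p of 0.261 and 0.264. Fringe genes, whose enzymes add sugars to Notch, were near 0: Lfng differed by 0.16 in basal forebrain (SE 0.09) and -0.06 in cortex, and Mfng by 0.19 and 0.00. The slide split of the cortex arrays applies to all these cortex values.

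Between the regions 39 of the 73 genes passed in Con (19 higher, 20 lower in basal forebrain) and 31 in DKO (11 higher, 20 lower), near the 49.0% and 39.9% of all genes, which are also the background of the counts by list. A total of 27 passed in both genotypes with one sign, 9 higher and 18 lower, which is 69.2% of those in Con and 87.1% of those in DKO. None passed with opposite signs. Over all genes tested in both, the shares were 61.5% and 75.7%. As for the members, the Con comparison sets slide 1 against slide 2, and the DKO comparison does so in mouse 3.

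Ligands outside the core set held the largest region differences. Dlk1 was higher in basal forebrain by 4.33 in Con (SE 0.33) and 3.52 in DKO (SE 0.33), and Mfap5, a microfibril protein reported to bind Notch1, by 1.56 and 2.12. Dlk2 went the other way, at -0.46 in Con and -0.74 in DKO. In the glycosylation list 5 of 8 genes passed as higher in basal forebrain in Con and 4 of 8 in DKO, and 0 passed as lower, although 2 of 8 had a negative difference in DKO. Mfng, or manic fringe, was 0.81 higher in Con (SE 0.12, limma adjusted p = 0.000237) and 1.00 higher in DKO (SE 0.12, adjusted p = 4.82e-05), and Pofut1, the enzyme that adds O-fucose to Notch, 0.45 and 0.36.

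Of the other targets 5 of 11 fell and 3 rose in basal forebrain of Con, and 5 fell and 1 rose in DKO. Over all genes 8112 of 26592 fell and 4913 rose in Con, and 5341 of 25916 fell and 4996 rose in DKO. Hes3 had -2.25 and -2.53, Bhlhe40, a circadian repressor, -1.97 and -1.44, and Hes2 -1.60 and -1.23, the first value in Con and the second in DKO. The ubiquitin and endocytosis list, which holds enzymes that activate ligands or clear receptors, had 3 of 14 higher and 6 lower in Con, and 1 higher and 7 lower in DKO. Fbxw7, the ubiquitin ligase that targets the Notch intracellular domain, was at -1.43 and -1.40, and Dtx4, a Deltex ligase, at -1.05 and -0.91. Mib1, which acts on ligands, was at -0.75 and -0.59, and Aak1, a kinase of endocytosis, at -0.56 and -0.75.

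Of the proteases 2 of 10 were higher and 3 lower in Con, and 1 higher and 3 lower in DKO. Adam10 was at -0.83 in Con and -0.55 in DKO, and nicastrin (Ncstn), a gamma-secretase subunit, at -0.59 and -0.43, so both were lower in basal forebrain, whereas Adam17 was higher by 0.50 in Con and 0.32 in DKO. In the nuclear complex 1 of 9 was higher in both genotypes, the acetyltransferase Kat2b (0.89 in Con, 0.72 in DKO), and 3 were lower in Con and 2 in DKO, among them Kat2a (-0.66 and -0.34). Of the co-repressors 2 of 12 rose and 2 fell in Con, and 0 rose and 2 fell in DKO, with Ncor1 at -0.43 and -0.55. Neuron markers were lower in basal forebrain with the falling genes, 3 of 5 in each genotype, and had a summed level of 7.79 to 8.13 there and 8.37 to 8.50 in cortex; their part was not tested.

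**Figure D5:**
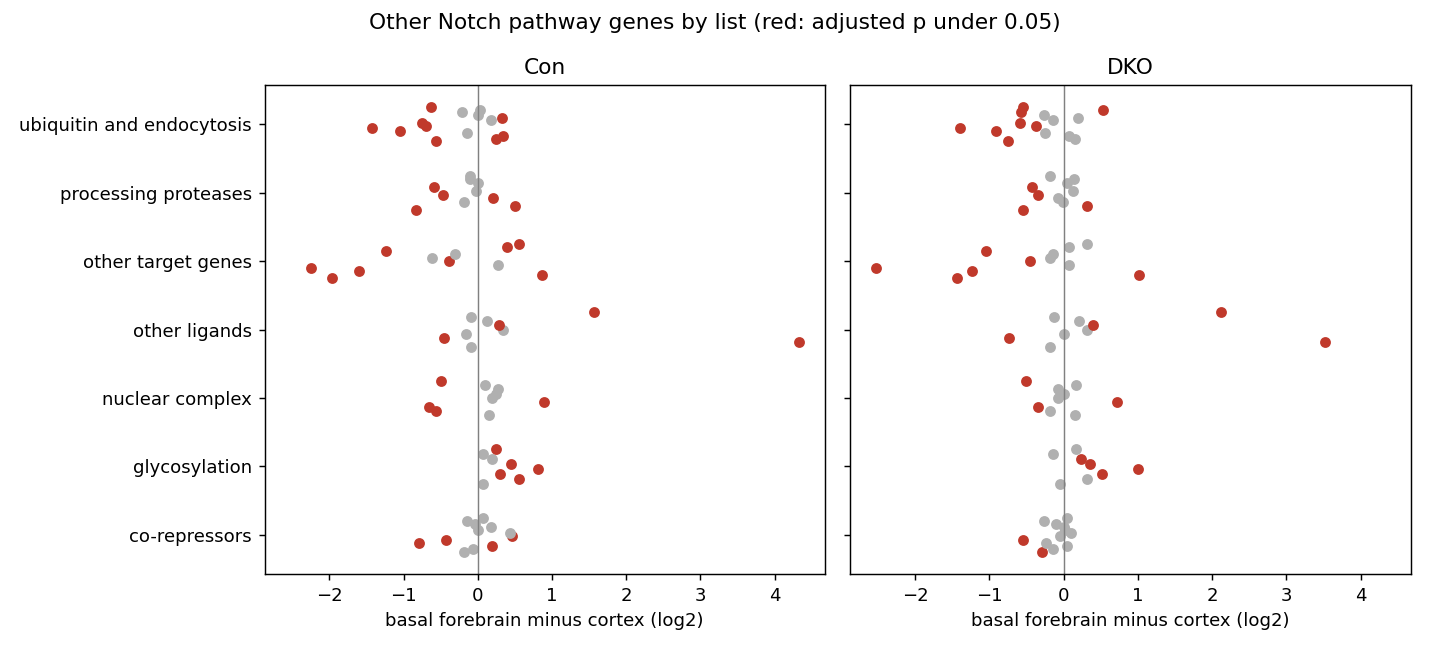
Basal forebrain minus cortex in log2 units for the 73 other Notch pathway genes by list, in Con (left) and DKO (right); red points passed at an adjusted p under 0.05 over all genes. Dlk1 is the point farthest right, at 4.33 and 3.52, Hes3 the farthest left, at -2.25 and -2.53, and no point of the glycosylation list passed below 0.

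Genes with the most similar pattern over the 12 arrays were listed for each member, out of 15814 genes above background on all arrays, as a description with no test. For Heyl they were Plcxd3, Mfng and Thsd7b, with Pearson r of 0.982, 0.982 and 0.979. Hes1 ran closest to Tacc1, Cdk5r1 and Il34 (0.988, 0.988 and 0.986), and Notch4 to Slc22a18, Zfp551 and Cdhr3 (0.982, 0.978 and 0.972). The arrays share slides, mice and regions, and after the group means were removed these r fell to 0.873 to 0.949. Notch1 ran with Stra6, Ermn and Pinx1 (0.978, 0.970 and 0.967), and Notch3 with Tor1b, Kirrel and Mill2 (0.951, 0.942 and 0.938). For Dll1 the genes were Olfr63, Ghr and Gpr153 (0.958, 0.949 and 0.948), and for Hey1 Psmd14, Exoc3 and Polr2k (0.946, 0.923 and 0.911). Notch2 (Hs3st3b1 at 0.935, Bche at 0.886, Efemp1 at 0.884), Jag1 (Hsdl2 at 0.915, Syt15 at 0.901, H2-M3 at 0.880) and Hes5 (Dynlt1c at 0.915, Ydjc at 0.907, Chid1 at 0.899) had looser companions. Mfng was the one gene of the pathway lists among these companions.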

How the data were processed

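Per the file headers, the arrays were read with Agilent Feature Extraction 10.7.1.1, whose processed intensity per spot is background-subtracted, detrended and not scaled between arrays; it was the value used. The authors' deposited normalized log2 values, with identical sorted values on all 12 arrays, served as an alternative; their making is not given in the sources used. Probe positions are those of the files (mm9). Unflagged spots of a probe were averaged on the log2 scale, the array's 75th percentile was subtracted, and the probe with the highest mean over the arrays stood for its gene. Between 68.9% and 75.0% of probes were above background per array. Symbols were updated from RefSeq for 32972 probes.

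Tests used limma 3.58.1 in R 4.3.3 (lmFit, eBayes with trend), with 3 mice per group, which limits precision. Genotypes were compared within each region and on mouse means, and regions and the interaction in 1 fit of 12 arrays. The sample titles tie the 2 arrays of a mouse, so regions are paired by animal: deviations of the same mouse correlated at -0.0873 to 0.154 in DKO and 0.212 to 0.39 in Con. The main fits of regions and interaction held no mouse term, and the mouse as a block was an alternative. Members were named whatever their values; of the pathway lists, genes that passed or had up to 3 smallest p (genotype) or largest differences (region) were eligible, and a selection of them is named. The members and lists were chosen with earlier results of these data known. Scripts were tested on simulated data. Alternatives covered normexp, quantile and authors' normalization, filters, probe averaging, blocks, slide and each array left out. The floxed gene and 1 pathway gene are not reported here by name.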

Additional observations from a re-analysis of the deposited data

How the results depend on the processing

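Of 1100 recomputed values of the 60 member results, 997 kept their sign and side of the threshold, 63 changed sign (1 after a call), 14 lost a call and 26 gained one. The settings are not separate checks. The authors' values nearly repeated quantile normalization, and in cortex the slide block gave the same differences as slide 2 alone. The number of members called in cortex was 0 to 4 with single arrays left out, and the 4 came with 9759 of 26082 genes. Without DKO mice 1 and 3 the cortex differences of Notch4, Jag1, Dll1 and Hes1 were 0.49, -0.44, -0.53 and -0.63. In that fit the remaining DKO cortex array was on slide 1 and the Con cortex arrays on slide 2, so slide and genotype cannot be told apart. Between the regions in DKO the number of members called was 8 with the mouse as a replicate block, beside 10397 of 25916 genes. In Con it was 0 with the slide as a block, a setting chosen after the data were seen, beside 2884 of 26592 genes. In the interaction it was 0 to 1 with single arrays left out. The replicate number as a block left 0 members in each genotype comparison; same-numbered DKO and Con mice correlated at -0.49 to 0.451 in basal forebrain and -0.0148 to 0.267 in cortex, so they share only a number.

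Sign changes were as follows, in values that had not passed unless said otherwise. In basal forebrain Notch4 was 0.00 with normexp and Dll1 -0.03 with quantile or the authors' normalization. Without DKO mice 1 and 3, Notch2 was 0.11, Dll1 -0.10 and Heyl -0.18 in basal forebrain, Heyl -0.03 in cortex, Notch2 0.01, Notch3 -0.03 and Heyl -0.10 over both regions, and the Heyl interaction -0.15. Between regions in Con, Jag1 was -0.01 with normexp, -0.03 with quantile and -0.02 with the authors' values, and Hey1 0.04 with the last 2. The Notch2 interaction was -0.01 with normexp. With the slide as a block (and within slide 2), cortex Notch4 was -0.08, Jag1 0.11 and Hes1 0.09; over both regions Notch4 was -0.04 and Jag1 0.14; the interactions of Notch2, Notch4, Hes1 and Hes5 were -0.03, 0.09, -0.27 and 0.12; and the Con region difference was 0.05 for Notch1 and, after a call, -0.01 for Notch4. The cause was not tested.

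With single arrays or mice left out, basal forebrain Notch2 ran from -0.17 to 0.01, Notch4 from -0.05 to 0.09, Dll1 from -0.09 to 0.08 and Hes1 from -0.39 to 0.02. Cortex Notch1 ran from -0.26 to 0.03, Notch3 over both regions from -0.03 to 0.04 and Jag1 from -0.16 to 0.07. The Con region difference ran from -0.44 to 0.40 for Notch1 and -0.12 to 0.16 for Jag1, and the interaction from -0.09 to 0.10 for Notch2, -0.05 to 0.39 for Hes1, -0.26 to 0.09 for Hes5 and -0.13 to 0.32 for Heyl. All genes called ranged over 0 to 24 in basal forebrain and 1 to 9759 in cortex. With 3 mice a group, and slides that follow region and genotype, small differences could not be resolved.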
